A study of Mus musculus with 12 samples.

Results

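The clustered protocadherin genes lie in a row on mouse chromosome 18, and DNA methylation was read there at CCCGGG sites between positions 37080000 and 38010000 (mm9). Of 74 such sites in this region, 5 had at least 20 reads in each of 11 adenomas and are the sites described here, out of 24503 autosomal sites that met the same depth and 173449 CCCGGG sites in all. Within the region, depth alone decided which sites were kept, and no methylation level entered that rule. The region itself was chosen with earlier results of these data known. Of the 5, 3 lie in the range of the Pcdha family (up to about 37350000) and are called alpha sites 1 to 3 (positions 37205718, 37249577 and 37249752). The other 2 lie in the range of the Pcdhg family (about 37810000 to 38005000) and are called gamma sites 1 and 2 (positions 37979681 and 37980099). None lies in the Pcdhb range (about 37420000 to 37670000).

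Clustered protocadherins are cell adhesion proteins that neurons use to tell their own processes from those of other cells. In the alpha and gamma clusters, each variable first exon has its own promoter and is spliced to constant exons shared by the cluster, whereas the beta genes are single exons. Promoter choice is tied to DNA methylation: a silent promoter is often methylated, and the insulator protein CTCF binds unmethylated promoters. In human colorectal tumours the matching clusters are known as a stretch where many promoters gain methylation together. The RefSeq gene table (GRCm38.p6) lists 14 Pcdha, 22 Pcdhb and 22 Pcdhg genes. Its positions are of another build, so no site below was assigned to a single gene, promoter or exon.

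The samples were 12 colonic adenomas of C57BL/6J mice aged 150 to 160 days, 3 of each of 4 genotypes, all carrying ApcMin/+, a truncating allele of the tumour suppressor Apc. Control adenomas were Tet1+/+ Tdg+/+ ApcMin/+. Tet1 null adenomas were Tet1-/- Tdg+/+ ApcMin/+, and Tet1 is the dioxygenase that oxidises 5-methylcytosine. Tdg heterozygous adenomas were Tet1+/+ TdgN151A/+ ApcMin/+, with a mutation in the glycosylase that removes the oxidised bases, and double heterozygous adenomas were Tet1+/- TdgN151A/+ ApcMin/+. No label states if each adenoma was from its own mouse. A p-value here therefore reflects only how far these adenomas differ among themselves, and the mutant alleles were not checked in the libraries. The level at a site is the authors' adjusted percent methylation: the share of reads cut while methylated, corrected with spiked standards. In bulk DNA, a level between the extremes cannot be told apart as a mixture of cells or as differences between the alleles of a cell. Libraries held 2349576 to 18865833 reads at CCCGGG sites. The shallowest is double heterozygous adenoma 3, with 19 to 75 reads at the 5 sites against 178 to 526 in the other 11, so its values are given apart and it is left out of means and of the tests.

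Few sites of the region were deep, and those that were deep had a close neighbour. The method sequences fragments that end at CCCGGG sites. All 5 sites have another CCCGGG site within 418 bp. At alpha site 1, however, the neighbours at 154 and 202 bp had 0 and 10 reads summed over the 12 adenomas, against 3790 at the site. The 60 sites of the region with no neighbour within 500 bp include none that met the depth, against 35.7% of the 14 with one. Over all autosomes, 42.6% of sites with a neighbour within 500 bp met it and 3.42% of those without one. The region as a whole had 6.76% of its sites past the depth, against 12.9% on the rest of chromosome 18 and 14.9% on all autosomes. Alpha sites 2 and 3 are 175 bp apart, and the read number at one was 1.00 to 1.03 times that at the other in each adenoma. Gamma sites 1 and 2 are 418 bp apart with a ratio of 0.980 to 1.03. The sites of a pair therefore count nearly the same fragments from both ends and are not independent measurements.

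**Figure D1:**
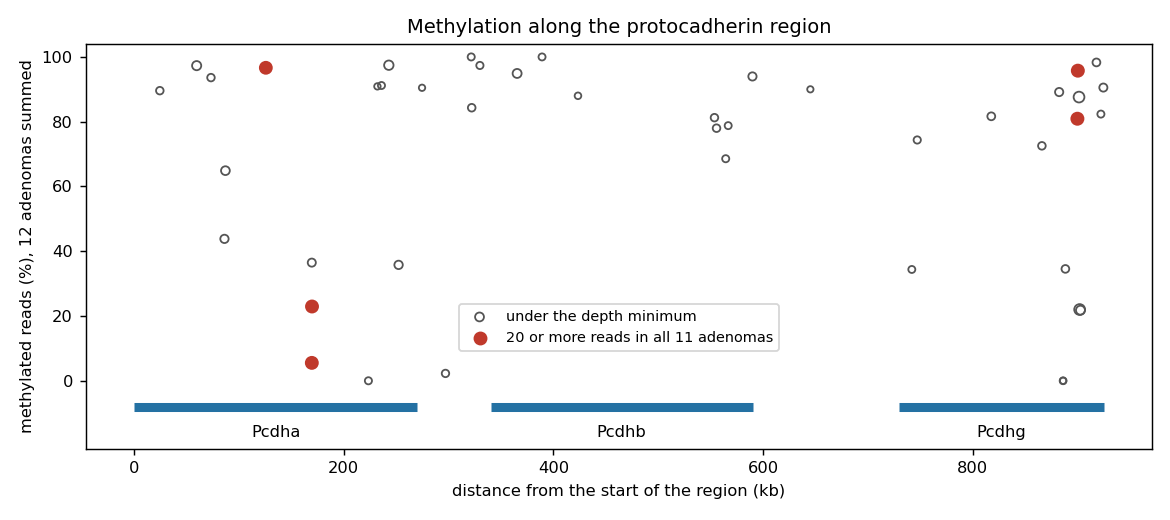
Methylated reads as a percent of all reads, summed over the 12 adenomas, at the sites of the region with 20 or more summed reads, against distance from the start of the region in kb. Filled points are the 5 deep sites, open points the shallower ones, point size follows the logarithm of the read number, and bars mark the 3 families. The low points lie in the Pcdha and Pcdhg ranges and between Pcdha and Pcdhb, and the points of the Pcdhb range lie at 68.6% or more.

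In control adenomas the 5 sites covered nearly the whole range of methylation. Alpha site 1 was at 97.5% ± 0.260 (SD, n = 3) and gamma site 2 at 94.3% ± 1.33. Gamma site 1 was at 78.8% ± 14.6, alpha site 3 at 31.5% ± 22.3 and alpha site 2 at 8.76% ± 4.88. Thus 1 site was below 20%, 2 were at 20 to 80% and 2 were above 80%. Of all 24503 autosomal sites of this depth, 62.6% were below 20% in control adenomas, 19.5% at 20 to 80% and 17.9% at 80% or more, and the rest of chromosome 18 had 62.0%, 20.4% and 17.7%. In the order of control levels, gamma site 2 lay below alpha site 1 in all 3 control adenomas. The values of gamma site 1 (62.1 to 89.4%) and alpha site 3 (5.96 to 47.1%) did not overlap, while those of alpha sites 3 and 2 (4.43 to 14.1%) did.

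No site of the 5 passed the test in any of 6 comparisons between genotypes (edgeR, adjusted p under 0.05 over 21016 sites). Against control, 1.35% of all tested sites were called in Tet1 null adenomas, with 0% for Tdg heterozygous ones and 0% for double heterozygous ones. Between mutant genotypes, 1.48% were called for Tet1 null against Tdg heterozygous, 0.471% for double heterozygous against Tet1 null and 0% for double against Tdg heterozygous adenomas. At an unadjusted p under 0.05 there were 0 of 5 sites for Tet1 null and for Tdg heterozygous adenomas against control, where all tested sites gave 8.05% and 3.01%, and 2 of 5 for double heterozygous adenomas against control (3.72%). There were 2 of 5 for Tet1 null against Tdg heterozygous (7.19%), 1 of 5 for double heterozygous against Tet1 null (4.23%) and 0 for double against Tdg heterozygous adenomas (2.71%). The count for double heterozygous adenomas against control depended on the setting. It was 1 with replicate number as a block, 0 with sex as a covariate and 0 without control 1. With sex as a covariate, the count for Tet1 null against control was 1. Limma on log2 ratios of counts and limma on the logit of the level also called 0 of the 5 sites in each comparison, with 0 to 2 sites at an unadjusted p under 0.05. Values of 2 genotypes did not overlap at 1 of the 5 sites for Tet1 null against control (11.5% of all tested sites), 0 for Tdg heterozygous against control (7.76%) and 1 for double heterozygous against control (15.2%). Between mutants this held at 1 site for Tet1 null against Tdg heterozygous (9.6%), 2 for double heterozygous against Tet1 null (13%) and 0 for double against Tdg heterozygous adenomas (11.6%). These shares pool both directions, whereas at each such site of the 5 the genotype named first was the lower. In that direction the shares of all tested sites were 1.24% for Tet1 null and 2.7% for double heterozygous adenomas against control. They were 1.92% for Tet1 null against Tdg heterozygous and 8.12% for double heterozygous against Tet1 null adenomas. With 5 sites, of which 2 pairs share fragments, these counts describe single loci and not the gene families.

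**Figure D2:**
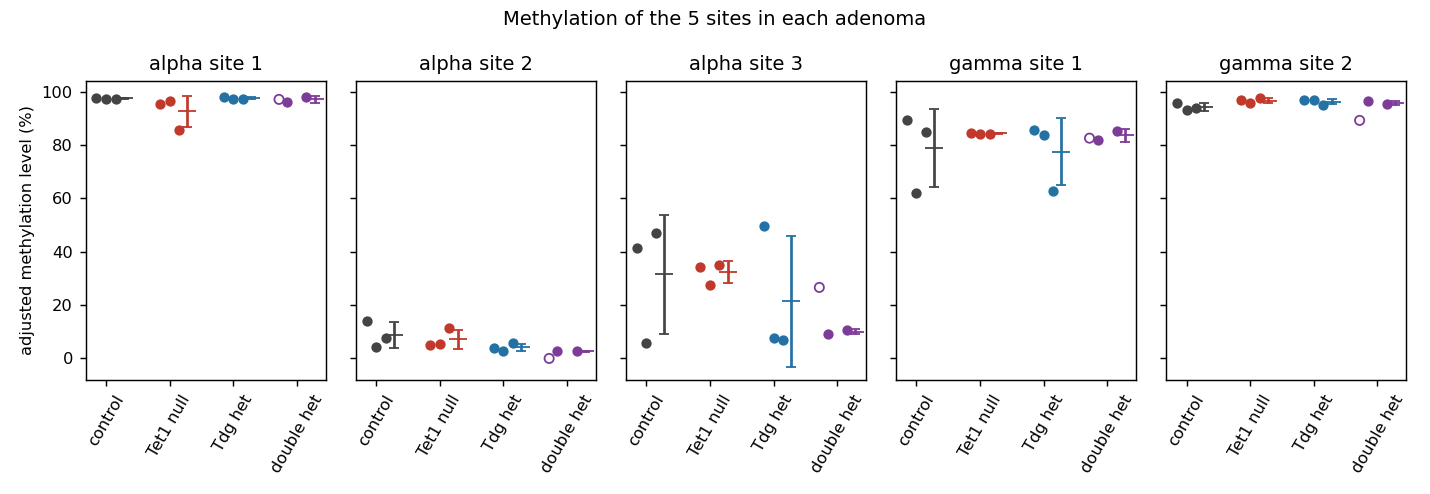
Adjusted methylation level in percent of each of the 5 sites, by genotype. Filled points are adenomas, horizontal marks with error bars are the mean and SD over 3 adenomas (2 for double heterozygous), and open points are the shallow double heterozygous adenoma 3. Alpha site 3 ranges from 5.96% to 49.6% and gamma site 1 from 62.1% to 89.4%, while gamma site 2 stays between 93.1% and 97.6% in the filled points.

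Alpha site 3 was the most variable of the 5 sites, with an SD of 17.3 points over the 11 adenomas. It was at 41.6%, 5.96% and 47.1% in control adenomas 1 to 3, and at 34.1%, 27.6% and 35.1% in the Tet1 null adenomas. It was at 49.6%, 7.77% and 6.74% in Tdg heterozygous adenomas 1 to 3 and at 9.35% and 10.7% in double heterozygous adenomas 1 and 2. The 11 values thus lay either between 5.96 and 10.7% or between 27.6 and 49.6%, with none between. All 3 Tet1 null adenomas were in the upper range, both double heterozygous adenomas in the lower, and the control and Tdg heterozygous genotypes each had adenomas in both. Each value rested on 218 to 526 reads, and the exact 95% intervals of counting error were 4.36 to 8.70% in control 2 and 36.6 to 47.9% in control 1 for the unadjusted share. The shallow double heterozygous adenoma 3 was at 26.6% with 20 reads, and its interval of 8.66 to 49.1% reaches into both ranges. Sex was read from Y chromosome reads. Male adenomas were control 1 and Tet1 null 1 and 2 in the upper range and Tdg heterozygous 2 and double heterozygous 1 and 2 in the lower. Female adenomas were control 3, Tet1 null 3 and Tdg heterozygous 1 in the upper range and control 2 and Tdg heterozygous 3 in the lower. All double heterozygous adenomas were male, so sex and genotype partly coincide. A link of sex to these ranges was not tested. Of 4790 sites of this depth with a mean of 20 to 80%, 4.89% had an SD at least as large, and the median SD was 9.86 points.

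The control mean at alpha site 3 was 31.5% ± 22.3 (SD, n = 3). It was 32.3% ± 4.11 for Tet1 null and 21.4% ± 24.4 for Tdg heterozygous adenomas (n = 3 each), and 10.01% ± 0.933 for the double heterozygous ones (n = 2). Both double heterozygous values were below all Tet1 null values, with a difference between the means of -22.2 points (edgeR adjusted p = 0.274). Against control the double heterozygous mean differed by -21.5 points, with overlapping values (edgeR adjusted p = 0.904). At sites with a mean of 20 to 80% the median difference in that comparison was 6.08 points, and 0.190% of them had a negative difference at least as large. For double heterozygous against Tet1 null adenomas this share was 2.21%. These shares are no test, and alpha site 3 was the most variable of the 5. For double heterozygous adenomas against control, the unadjusted limma p was 0.147 on log2 ratios of counts and 0.251 on the logit of the level. Tet1 null adenomas differed from control by 0.730 points, where the median over sites with a mean of 20 to 80% was 5.81 points. Tdg heterozygous adenomas differed from control by -10.2 points (adjusted p = 1). The difference of Tet1 null from Tdg heterozygous adenomas was 10.9 points (edgeR adjusted p = 0.545). Without Tdg heterozygous adenoma 1, the only one of that genotype in the upper range, it was 25.0 points and passed the threshold (edgeR adjusted p = 0.0475). That adenoma stands apart by its own value at this site, so no difference is concluded from this pass. Of all site comparisons with 1 adenoma left out, only this 1 became called, while 312 stayed the same and 17 changed sign. Many of these runs left out an adenoma of neither genotype compared and could hardly move. The 312 therefore does not measure stability. With the shallow adenoma included, the double heterozygous mean differed by -16.7 points from Tet1 null (adjusted p = 0.304) and by -15.98 points from control. Without control 2, the only control in the lower range, the differences from control were -34.3 points for double heterozygous adenomas 1 and 2, -12.05 points for Tet1 null and -22.9 points for Tdg heterozygous adenomas. Without control 3 they were -13.7, 8.50 and -2.39 points. Without Tdg heterozygous 1 the last was -24.3 points.

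Alpha site 2, at 175 bp from alpha site 3 and on nearly the same fragments, was low in every adenoma. It was at 14.1%, 4.43% and 7.79% in the controls and at 4.99%, 5.32% and 11.3% in the Tet1 null adenomas. It was at 3.84%, 2.79% and 5.69% in Tdg heterozygous and at 2.62% and 2.87% in double heterozygous adenomas. The double heterozygous values lay below all control values, with a difference of -6.01 points (edgeR adjusted p = 0.904). They also lay below all Tet1 null values, with a difference between the means of -4.45 points (edgeR adjusted p = 0.986). The Tdg heterozygous mean differed from control by -4.65 points and the Tet1 null mean by -1.56 points, both with overlapping values (adjusted p = 1 and 0.994). Without control 1, the highest of all adenomas, the double heterozygous difference from control was -3.36 points. The shallow adenoma had 0 methylated of 19 reads, which allows up to 15.8%.

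The gap between the 2 neighbouring alpha sites varied widely across adenomas. Alpha site 3 was the higher in all 11, by 1.05 to 45.7 points, with the widest gap in Tdg heterozygous 1. There, alpha site 2 was at 3.84% while alpha site 3 was at 49.6%. In control 1, with the highest level of all adenomas at alpha site 2, alpha site 3 was at 41.6%, below control 3 and Tdg heterozygous 1. A further CCCGGG site, 29 bp before alpha site 2, had at most 12 reads per adenoma and held 27 methylated of 74 reads summed over the 12 adenomas, or 36.5% (exact 95% interval 25.6 to 48.5%).

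Alpha site 1, 43.9 kb before alpha site 2, was nearly fully methylated. It was at 97.7%, 97.2% and 97.4% in control adenomas and at 98.03%, 97.4% and 97.4% in Tdg heterozygous adenomas. Double heterozygous adenomas 1 and 2 had 96.1% and 98.05%. The shallow one had 97.1% with 32 reads. Tet1 null adenomas 1 to 3 were at 95.4%, 96.6% and 85.8%, so all 3 lay below all controls and all Tdg heterozygous adenomas. The mean of 92.6% ± 5.91 against 97.5% ± 0.260 gave a difference of -4.84 points (edgeR adjusted p = 0.652). Most of it came from Tet1 null adenoma 3, in which 26 of 198 reads were unmethylated (exact 95% interval of the methylated share 81.4 to 91.2%), against 14 of 308 and 14 of 409 in Tet1 null adenomas 1 and 2. Without this adenoma the difference was -1.45 points. The difference from Tdg heterozygous adenomas was -5.00 points (adjusted p = 0.666), and -1.61 points without it. At sites of 80% or more the median difference between Tet1 null and control was 0.298 points, and 3.90% of 4646 such sites had a negative difference at least as large.

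Gamma site 1 was high in 9 adenomas and lower in 2. It was at 89.4%, 62.1% and 84.8% in controls 1 to 3 and at 85.8%, 83.9% and 62.9% in Tdg heterozygous adenomas 1 to 3. The Tet1 null adenomas were at 84.7%, 84.2% and 84.2%, and the double heterozygous adenomas at 81.8% and 85.4%. Control 2 and Tdg heterozygous 3 thus stood apart from the other 9, none of which was below 81.8%. They had 418 and 454 reads, and the shallow adenoma was at 82.6% with 75 reads. Both were also in the lower range of alpha site 3, and both were female. However, Tdg heterozygous 2 and double heterozygous 1 and 2 shared that lower range and were high at gamma site 1. Control 3, Tet1 null 3 and Tdg heterozygous 1 were also female and were high at gamma site 1. The differences from control were 5.62 points for the Tet1 null mean, -1.22 for the Tdg heterozygous mean and 4.83 for the double heterozygous mean (edgeR adjusted p = 0.926, 1 and 1). Without control 2 they were -2.71, -9.55 and -3.50 points, and without control 1 they were 10.9, 4.10 and 10.2 points. Without Tdg heterozygous 3 the Tdg heterozygous difference was 6.08 points. The SD over adenomas at this site was 9.24 points. Of sites with a mean of 80% or more, 6.05% had an SD at least as large, and the median was 3.07 points. The mean of gamma site 1 over the 11 adenomas, 80.8%, was just inside that class. For sites with a mean of 20 to 80% the median SD was 9.86 points, so this rank depends on the class edge.

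Gamma site 2 was the most stable of the 5, with an SD of 1.34 points over 11 adenomas. Its mean was 94.3% ± 1.33 for control adenomas, against 96.7% ± 0.931 for Tet1 null and 96.3% ± 0.956 for Tdg heterozygous adenomas and 95.9% ± 0.806 for double heterozygous ones. The adenomas that were low at gamma site 1 were the lowest of their genotypes here too, but by far less: control 2 was at 93.1% and Tdg heterozygous 3 at 95.2%. The shallow adenoma was at 89.3% with 69 reads. The second site was the higher in all 11 adenomas, by 6.29 to 32.2 points. The differences of the mutant means from control were 2.43, 2.02 and 1.64 points (edgeR adjusted p = 0.761, 1 and 0.966).

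**Figure D3:**
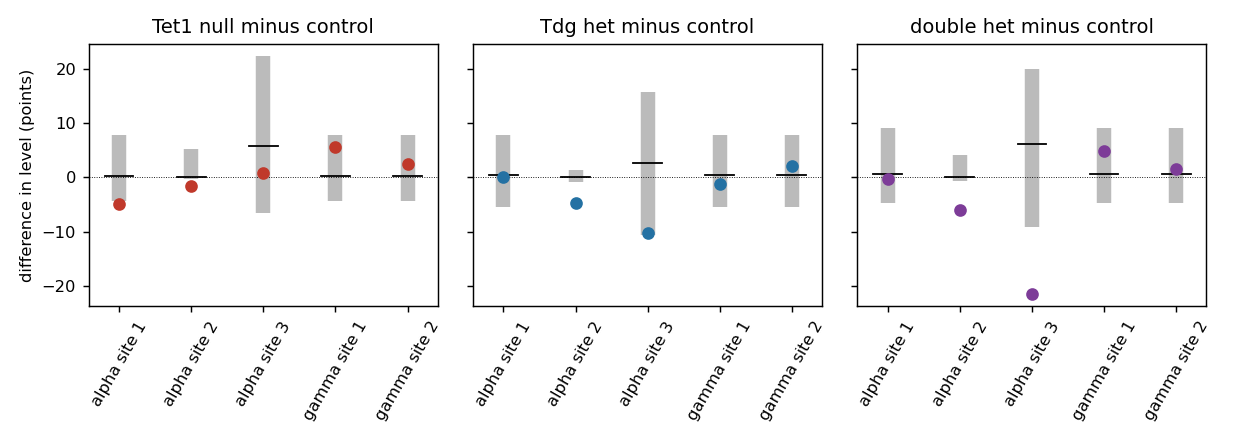
Difference of each mutant genotype mean from the control mean, in percentage points, for the 5 sites (points). Grey bars span the 5th to the 95th percentile of the same difference over autosomal sites of the same level class (below 20%, 20 to 80%, 80% or more), and black lines mark their median. The largest difference is at alpha site 3 in double heterozygous adenomas, -21.5 points.

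Averaged by family, the site pairs and the single site gave a Pcdha level of 45.9% ± 8.70 for control adenomas. The level was 44.02% ± 0.833 for Tet1 null and 41.03% ± 8.19 for Tdg heterozygous adenomas (n = 3 each), and 36.6% ± 0.820 for double heterozygous ones (n = 2). The Pcdhg levels were 86.5% ± 7.88, 90.5% ± 0.498, 86.9% ± 6.82 and 89.7% ± 0.870 in the same order. Every mutant range lay at least in part within the control range, which was 35.9 to 51.1% for Pcdha and 77.6 to 92.6% for Pcdhg. The Pcdha mean joins sites at 97.5%, 31.5% and 8.76% in control, so the spread between its sites was larger than any difference between genotypes. These means were given no test.

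Just outside the depth rule were 2 more sites of the Pcdhg range, which had at least 20 reads in 10 of the 11 adenomas and 14 and 17 reads in Tet1 null adenoma 3. The nearest values inside it were the 178 reads of that adenoma at both gamma sites. The first, at position 37981223, lay 1124 bp after gamma site 2. Its level was 92.0% ± 2.93 for control, 90.6% ± 8.44 for Tet1 null and 83.6% ± 7.94 for Tdg heterozygous adenomas (n = 3 each), and 92.3% ± 5.87 for the double heterozygous ones (n = 2). The second, at position 37981819, lay only 596 bp further. Its level was 25.5% ± 1.74 for control and 24.6% ± 7.84 for Tet1 null adenomas. The Tdg heterozygous adenomas were at 20.6%, 8.18% and 30.1%, and double heterozygous adenomas 1 and 2 at 31.1% and 14.1%. Another site 786 bp beyond it, with 5 to 22 reads per adenoma, held 34 methylated of 156 summed reads (21.8%, exact 95% interval 15.6 to 29.1%). Methylation was thus lower at position 37981819 than at position 37981223, 596 bp before it, in every adenoma, the shallow one included (64.7 to 11.4% of reads).

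**Figure D4:**
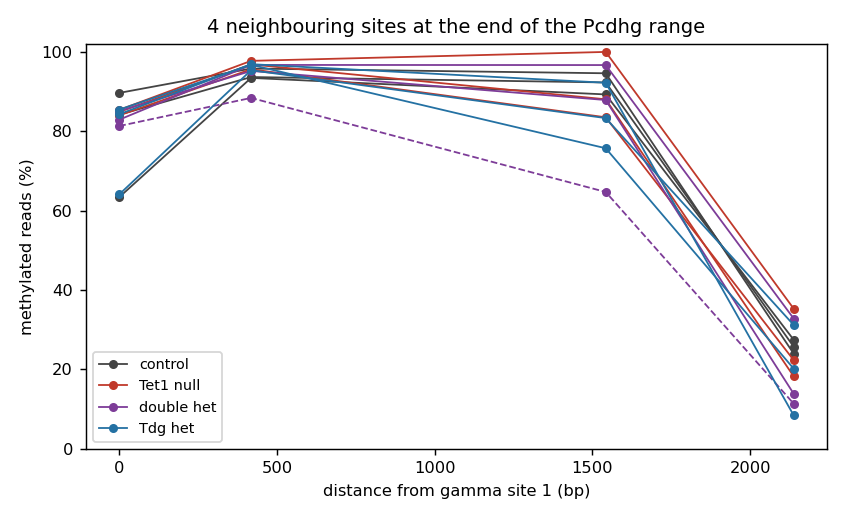
Methylated reads in percent at gamma sites 1 and 2 and at the 2 sites just outside the depth rule, against distance from gamma site 1 in bp. Each line is an adenoma, coloured by genotype, and the dashed line is the shallow double heterozygous adenoma 3. All lines end at 8.41 to 35.3%, and 2 lines start lower than the others, at gamma site 1.

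The other 69 sites of the region, positions 37981223 and 37981819 among them, did not meet the depth rule. Their reads were summed over all 12 adenomas, which mixes genotypes and covers counting error only. Of the 69 sites, 39 had at least 20 summed reads: 22 were at 80% or more, 13 at 20 to 80% and 4 below 20%. In the Pcdhb range, where no site was deep, 8 such sites were all at 68.6% or more, 5 of them at 80% or more. The deepest, position 37445350, had 149 methylated of 157 reads (94.9%), and position 37469126 had 33 of 33. The lowest was position 37644283 with 24 of 35 (68.6%, exact 95% interval 50.7 to 83.2%). Over all reads of the Pcdhb range, the share methylated was 88.3% ± 3.01 for control and 81.4% ± 2.40 for Tet1 null adenomas (n = 3 each). It was 87.5% ± 3.75 for Tdg heterozygous (n = 3) and 82.8% ± 4.99 for double heterozygous adenomas (n = 2). All 3 Tet1 null values (79.3 to 84.0%) were below all control values (85.3 to 91.3%), but each rested on 26 to 75 reads. The exact 95% interval was 73.7 to 91.5% in the deepest Tet1 null library, and the sites that had reads differed between adenomas. No test was made on these sums.

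The 4 low sites lay in and beside the alpha and gamma ranges. In the Pcdha range, position 37303548 had 0 methylated of 35 reads, which allows up to 8.57%. Between the Pcdha and Pcdhb ranges, position 37377038 had 1 of 44 (2.27%). In the Pcdhg range, positions 37966017 and 37966041 had 0 of 21 and 0 of 29, which allows up to 14.3 and 10.3%. Sites near full methylation stood in the same families, with 181 of 186 reads at position 37139745 and 229 of 235 at position 37323007 in the Pcdha range and 58 of 59 at position 37997822 in the Pcdhg range. Apart from the 3 alpha sites, the Pcdha range held 4 sites between 35.8 and 64.9% on 74 to 131 reads, among them positions 37166259 (39 of 89) and 37167176 (85 of 131).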

How the data were processed

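Adenoma DNA was spiked with standards and cut with SmaI, then XmaI, and reads starting at unmethylated or methylated sites were counted, per the labels' protocols. Trim Galore, Bowtie2 and mm9 are named, without versions, per the submitters' processing notes, while the protocol mentions a rat build. Per site, the authors deposited counts of reads in each state. They also deposited 2 percent levels, raw and adjusted with the standards, per the labels. The adjustment moved levels at the 5 sites by -1.13 to 2.06 points (raw minus adjusted). A depth of at least 100 reads is stated per the labels, but shallower sites are listed too.

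Autosomal sites with 20 or more reads in 11 adenomas and reads of both states (21016) entered edgeR 4.0.16 (R 4.3.3). The quasi-likelihood test had 1 depth coefficient per adenoma and methylated-count coefficients per genotype, with Benjamini-Hochberg adjustment over all sites and a two-sided threshold of 0.05. It was run on simulated data with a smaller spread than that estimated here (edgeR common dispersion 0.112). That run therefore does not measure its error rate on these data. Alternatives used limma 3.58.1 and other depths, adenomas and covariates. Intervals are exact Clopper-Pearson at 95%, and a count of 0 is given with the upper end of its interval. Within genotypes, pairs of the 11 adenomas differed at 18.5 to 33.2% of tested sites (chi-square p under 0.05), so none of these pairs looked like 1 library deposited again. Sex was taken as male from 100 or more Y chromosome reads. The rule for named sites (those called, the 3 largest rises and falls from control in each comparison, the 2 highest and 2 lowest control levels of each family and the 3 largest SDs) took in all 5. Shallower sites were named after their values were seen. The region and the sites were chosen with earlier results of these data known. Figures were drawn with matplotlib 3.10.9. No sequence is shown, and no gene annotation of mm9 was used here.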

Additional observations from a re-analysis of the deposited data

How the results depend on the processing

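The count of 0 called sites among the 5 held in all 6 comparisons under each alternative run over all 11 adenomas, with all 12 adenomas (also with the sites of the 11, an alternative chosen after seeing the data) and with sex as a covariate. The exception came from leaving out single adenomas, where the count for Tet1 null against Tdg heterozygous ranged from 0 to 1. With replicate number as a block (replicate block) 0 of the 5 sites were called in each comparison. Same-numbered adenomas correlated at -0.211 to 0.212 (mean -0.024) in their deviations over sites. Differently numbered ones correlated at -0.315 to 0.315 (mean 0.012). The deviations of the 2 double heterozygous adenomas mirror each other by construction, so these ranges are partly fixed in advance. The numbers were not taken to pair adenomas. The Pcdha mean depends on which of its sites enter. With all 12 adenomas alpha site 2 drops out at 19 reads, and the means were 64.5% for control, 62.4% for Tet1 null, then 59.5% for Tdg heterozygous adenomas and 56.3% for double heterozygous ones, with 88.5% for Pcdhg in the last. Medians over the Pcdha sites were 31.5, 32.3, 21.4 and 10.01%, and summed reads gave 32.7% in double heterozygous adenomas. Of 30 differences of single sites, none called, some changed sign in log2 odds under other settings. With centring these were -0.10 (gamma site 1, Tet1 null minus control), -0.15 (alpha site 1, Tdg heterozygous minus control), -0.12 (gamma site 1, double heterozygous minus control) and -0.22 (gamma site 2, Tet1 null minus Tdg heterozygous). With sex they were -0.19 and -0.03 (gamma site 1, double heterozygous minus control and minus Tdg heterozygous). The cause was not tested. Leaving out single adenomas, log2 odds against control ranged from -0.69 to 0.25 (alpha site 2), -0.69 to 1.08 (alpha site 3) and -0.29 to 0.90 (gamma site 1) for Tet1 null, from -0.83 to 0.39 (gamma site 1) for Tdg heterozygous, and from -0.52 to 0.33 (alpha site 1) and -0.37 to 0.82 (gamma site 1) for double heterozygous adenomas. Between mutants they ranged from -0.02 to 0.85 and -0.06 to 0.40 (gamma sites 1 and 2, Tet1 null minus Tdg heterozygous), -0.19 to 0.04 and -0.55 to 0.02 (the same, double heterozygous minus Tet1 null), and -0.63 to 0.22, -1.39 to 0.48, -0.10 to 0.77 and -0.42 to 0.14 (alpha sites 1 and 3, gamma sites 1 and 2, double minus Tdg heterozygous).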
